A study of Drosophila melanogaster with 5 samples.

Results

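The translation of 6 genes of iron storage, iron regulation and iron transport was followed in Drosophila melanogaster S2 cells, an established embryonic line with haemocyte-like features. The genes were Fer1HCH, Fer2LCH, Irp-1A, Irp-1B, Tsf1 and Mvl, taken from the 13962 protein-coding genes of the Release 6 annotation for their known roles. Each open reading frame (ORF) that lay inside the span of one of these genes, and of no other protein-coding gene, was counted as belonging to it. Of the 23277 different ORFs found across the 5 lists, 18 belonged to the iron genes, with 7 different stop codons, and 6 of the 18 were in all 5 lists.

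Animal cells keep surplus iron inside ferritin, a hollow shell built from heavy and light chains, of which the heavy chain oxidises the metal so that it can be stored. In insects ferritin enters the secretory pathway, and its light chain is a separate gene next to the heavy chain gene. Iron regulatory proteins are relatives of cytosolic aconitase. When one of them lacks its iron-sulphur cluster it can bind an iron responsive element, a stem-loop in the 5′ part of mRNAs such as that of ferritin, and hold back their translation. Transferrin carries iron outside cells, and Malvolio, encoded by Mvl, belongs to the NRAMP family of divalent metal transporters.

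The cells were ribosome-profiled, meaning that RNA not covered by ribosomes was digested and the protected fragments were sequenced. The study tested how the footprinting conditions shape the data. With cycloheximide, an inhibitor of elongation, cells had been treated for 3 min before harvest and were footprinted with E-RNaseI in Buffer 2 or with A-RNaseI in Buffer 1. Without this treatment the same 2 combinations were used, and E-RNaseI in Buffer 2 was also given as a deeper list. Buffer 2 held less salt and more Tris than Buffer 1. The Tris concentration was 100 mM in the former against 50 mM in the latter. Sodium chloride stood at 150 mM in Buffer 1. For Buffer 2 the sample labels put it at 50 mM, while the paper states a lower value. Magnesium chloride (10 mM) and the temperature of incubation (4 °C) were the same for all samples. All cells met cycloheximide in the wash, so "in the absence of cycloheximide" refers to the treatment before harvest only. RNase and buffer changed together and cannot be told apart. Each condition was 1 sample, so no test between conditions could be made, and all intervals given are 95% intervals that cover counting error only, exact unless said otherwise. No RNA-seq was used here, so the amount of an mRNA and the ribosomes on each copy cannot be told apart.

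The lists held 10503 ORFs (cycloheximide, E-RNaseI), 7678 (cycloheximide, A-RNaseI), 12048 (no cycloheximide, E-RNaseI, deep), 8456 (no cycloheximide, E-RNaseI) and 6621 (no cycloheximide, A-RNaseI). Depth was compared by the summed P-sites, the positions assigned to the peptidyl site of the ribosome. The lists had 1544 ORFs in common, with 1165 stop codons, and the longest common ORF per stop codon was summed. These sums were 911539 (E-RNaseI) and 454627 (A-RNaseI) with cycloheximide. In its absence they were 4214960 in the deep list, 297263 with E-RNaseI and 320581 with A-RNaseI. Of the 9 haemocyte-like markers, 8 had an ORF in the deep list and 4 or 5 in the standard lists. None of the 10 fat body, neuron and muscle markers had one in any list, and 1 of the 3 midgut markers, LManI, had one in the 3 E-RNaseI lists. Of all protein-coding genes, 43.8% had an ORF in the deep list and 27.7% to 40.1% in the standard lists. In the deep list the haemocyte-like markers ran from 0.473 P-sites per 100 nt (Hml) to 182 (Pxn). Hml, Sr-CI (1.85) and Col4a1 (2.21) lay below LManI (4.33), and the other called ones above it. NimC1 had no ORF in any list.

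Translated ORFs were found for 4 of the 6 iron genes, and the same 4 in every list. These were Fer1HCH, the ferritin heavy chain, both iron regulatory proteins and Mvl. No ORF of Fer2LCH, the ferritin light chain, or of Tsf1, a secreted transferrin, was in any of the 5 lists as used here, and none touched the spans of these genes. For comparison, the share of protein-coding genes with an ORF of their own was 40.1% (E-RNaseI) and 31.0% (A-RNaseI) with cycloheximide. In its absence it was 43.8% in the deep list, 34.4% with E-RNaseI and 27.7% with A-RNaseI. Of all protein-coding genes, 23.5% had an ORF in all 5 lists and 55.9% in none. The lists hold only ORFs that passed the ORF caller's filters, so the absence of Fer2LCH and Tsf1 gives no upper limit on their translation.

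Fer1HCH and Fer2LCH are neighbours on chromosome 3R, and their annotated spans overlap. Fer1HCH lies at 3R:30385573-30388178 and Fer2LCH at 3R:30387804-30390584 (Release 6), with the stretch 30387804-30388178 in both. All called Fer1HCH ORFs ended at 30387529 or before, outside the shared stretch, and lay on the minus strand. Tsf1 lies at X:18387084-18390344. Irp-1A lies at 3R:22721320-22724587, Irp-1B at 3R:10408618-10412869 and Mvl at 3R:21051383-21060800, and none of these last 4 genes overlaps another protein-coding gene. All 4 called genes are on the minus strand.

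Fer1HCH was the most densely covered of the iron genes in every list. Its longest ORF, 735 nt on transcript FBtr0332170, held 676 P-sites (cycloheximide, E-RNaseI), 311 (cycloheximide, A-RNaseI), 3367 (no cycloheximide, E-RNaseI, deep), 258 (no cycloheximide, E-RNaseI) and 246 (no cycloheximide, A-RNaseI). Per 100 nt of ORF this was 92.0 (E-RNaseI) and 42.3 (A-RNaseI) P-sites with cycloheximide. In its absence it was 458 in the deep list, 35.1 with E-RNaseI and 33.5 with A-RNaseI. Ranked by this level, Fer1HCH stood above 91.9% to 94.8% of the genes of each list. It was 316th of 6107 genes in the deep list, where the median gene had 28.7 P-sites per 100 nt.

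The regulators were covered less densely. Irp-1B, a paralogue of Irp-1A with a 2697 nt ORF of 899 codons on FBtr0082259, held 398 (E-RNaseI) and 215 (A-RNaseI) P-sites with cycloheximide, and 2069 (deep), 147 (E-RNaseI) and 192 (A-RNaseI) without it. Per 100 nt these were 14.8 (E-RNaseI) and 7.97 (A-RNaseI) P-sites with cycloheximide, and 76.7 (deep), 5.45 (E-RNaseI) and 7.12 (A-RNaseI) without it. Irp-1B was above the median gene in every list, at rank 1607 of 6107 in the deep list. Irp-1A, known to bind iron responsive elements, held 147 (E-RNaseI) and 97 (A-RNaseI) P-sites with cycloheximide, and 723 (deep), 52 (E-RNaseI) and 63 (A-RNaseI) without it. Per 100 nt these were 5.43 (E-RNaseI) and 3.58 (A-RNaseI) P-sites with cycloheximide, and 26.7 (deep), 1.92 (E-RNaseI) and 4.15 (A-RNaseI) without it. Irp-1A was below the median gene in every list but the last, in which its ORF was called shorter.

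The ORFs of the regulators have nearly the same length, 2706 nt for Irp-1A and 2697 nt for Irp-1B, so their P-sites can be set side by side. Irp-1A had 0.368 (0.303 to 0.446; E-RNaseI) and 0.450 (0.350 to 0.574; A-RNaseI) of the P-sites per 100 nt of Irp-1B with cycloheximide. In its absence the ratio was 0.348 (0.320 to 0.379) in the deep list and 0.353 (0.252 to 0.487) with E-RNaseI. Without cycloheximide and with A-RNaseI it was 0.583 (0.431 to 0.779) on the shorter Irp-1A ORF, and 0.327 (0.242 to 0.437) when the length of the deep list's ORF was used. The value of 0.327 is a lower limit, since P-sites before the called start were not counted. On the ORFs as called Irp-1A was therefore the less densely covered regulator in all 5 lists. It stood at 0.348 to 0.450 of Irp-1B wherever its full ORF was called.

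Mvl was close to the median gene. Its form with the most P-sites in the deep list, FBtr0301477, was used for its level in every list. It held 102 (E-RNaseI) and 56 (A-RNaseI) P-sites with cycloheximide, and 655 (deep), 30 (E-RNaseI) and 66 (A-RNaseI) without it. Per 100 nt of the ORF as called these were 5.70 (E-RNaseI) and 4.11 (A-RNaseI) P-sites with cycloheximide, and 36.6 (deep), 4.08 (E-RNaseI) and 3.69 (A-RNaseI) without it. In the standard E-RNaseI list without cycloheximide this form was called at 735 nt only, and the other Mvl forms held more, 45 P-sites each, or 2.96 per 100 nt on FBtr0306351.

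**Figure D1:**
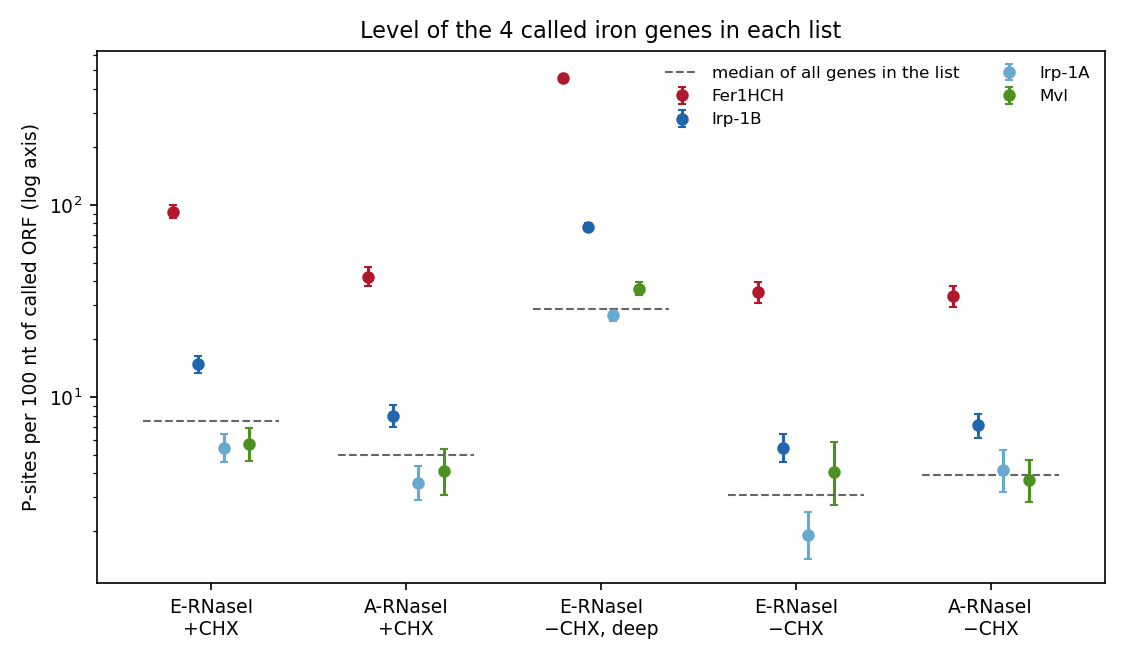
P-sites per 100 nt of called ORF (log axis) of Fer1HCH, Irp-1B, Irp-1A and Mvl (FBtr0301477) in each list with cycloheximide treatment (+CHX) or without it (−CHX); bars are exact 95% Poisson intervals and dashed lines the median of all genes in the list. Fer1HCH stands above the others in each list, Irp-1B follows, and Irp-1A and Mvl lie near the median gene.

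The order by level, on the ORFs as called, was Fer1HCH, Irp-1B, Mvl and Irp-1A in 4 lists. In the list without cycloheximide and with A-RNaseI the last pair was in the opposite order. Fer1HCH exceeded Irp-1B by between 4.70-fold (3.88 to 5.71; no cycloheximide, A-RNaseI) and 6.44-fold (5.24 to 7.94; no cycloheximide, E-RNaseI). The levels of Mvl and Irp-1A did not differ beyond counting error in 3 lists. Mvl over Irp-1A was 1.05 (0.808 to 1.36; E-RNaseI) and 1.15 (0.810 to 1.61; A-RNaseI) with cycloheximide, and Irp-1A over Mvl was 1.12 (0.783 to 1.61) in its absence with A-RNaseI. In the deep list Mvl exceeded Irp-1A by 1.37-fold (1.23 to 1.53) and in the standard E-RNaseI list without cycloheximide by 2.12-fold (1.31 to 3.39). In that last list Irp-1B and Mvl did not differ beyond counting error (1.34-fold, 0.897 to 2.05). Both values of that list rest on the 735 nt call of Mvl. With the P-sites of the 735 nt call spread over the 1788 nt of the deep list, Mvl had 1.68 P-sites per 100 nt there. This was 0.873 (0.538 to 1.39) of Irp-1A and 0.308 (0.201 to 0.458) of Irp-1B. P-sites before the called start were not counted, so these values are lower limits. On its form with 45 P-sites Mvl had 1.54 (1.01 to 2.34) times the level of Irp-1A and 0.543 (0.380 to 0.763) of that of Irp-1B. With cycloheximide and A-RNaseI, spreading the P-sites of the shorter Mvl call over 1788 nt gave 0.874 (0.617 to 1.23) of Irp-1A. That value is a lower limit for the same reason.

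Fer1HCH was called in several forms that share most of their coding sequence. The shortest full form, 615 nt or 205 codons on FBtr0085631, has 3 coding exons. FBtr0306588 adds an exon of 111 nt at 3R:30386718-30386828, and FBtr0332170 adds this exon and another of 9 nt at 3R:30387103-30387111. The 3 forms had exactly equal P-sites in every list, so the added coding exons contributed 0 of the 3367 P-sites of the deep list. With 3 counts taken as an approximate upper limit, not an exact one, this allows them a share of up to 0.0891%. In the standard lists 0 of 246 to 676 P-sites allows up to 1.22% to 0.444% by the same approximation. The 120 added nt amount to 19.5% of the length of the shortest full form. Computed on the 615 nt form, Fer1HCH had 110 (E-RNaseI) and 50.6 (A-RNaseI) P-sites per 100 nt with cycloheximide, and 547 (deep), 42.0 (E-RNaseI) and 40.0 (A-RNaseI) without it. This placed it 258th of 6107 genes in the deep list.

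A form on FBtr0344763 starts 108 nt downstream in the same frame and is 507 nt long. It was called in every list, and the difference between it and the 615 nt form gives the P-sites on the first 36 codons. These numbered 254 (E-RNaseI) and 100 (A-RNaseI) with cycloheximide, and 1024 (deep), 86 (E-RNaseI) and 58 (A-RNaseI) without it. The first 108 nt are 17.6% of the length. They held 37.6% (33.9 to 41.3) of the P-sites with cycloheximide and E-RNaseI, against 33.3% (27.6 to 39.4) without cycloheximide and 30.4% (28.9 to 32.0) in the deep list. With A-RNaseI they held 32.2% (27.0 to 37.7) in the presence of cycloheximide, against 23.6% (18.4 to 29.4) in its absence. The start of the Fer1HCH coding sequence was thus more densely covered than the rest in all 5 lists. The P-sites per 100 nt of the first 36 codons were 2.83 (2.41 to 3.31; E-RNaseI) and 2.22 (1.74 to 2.84; A-RNaseI) times those of the remainder with cycloheximide. In its absence they were 2.05 (1.90 to 2.21) times those of the remainder in the deep list, 2.35 (1.79 to 3.06) times with E-RNaseI and 1.45 (1.06 to 1.95) times with A-RNaseI.

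A further form, on FBtr0085635, is 363 nt long and reads 18 nt into the 62 nt intron at 3R:30386257-30386318, where it meets another stop codon. Its first 345 nt, which are coding in the full form, and the 18 nt of intron were counted together as the 5′ stretch, since P-sites in the intron cannot be separated. It held 448 (E-RNaseI) and 195 (A-RNaseI) P-sites with cycloheximide, and 1819 (deep), 140 (E-RNaseI) and 142 (A-RNaseI) without it. As a share of the P-sites of the 615 nt form this was 66.3% (62.6 to 69.8) with cycloheximide and E-RNaseI, against 54.3% (48.0 to 60.5) without cycloheximide and 54.0% (52.3 to 55.7) in the deep list. With A-RNaseI it was 62.7% (57.1 to 68.1) in the presence of cycloheximide, against 57.7% (51.3 to 64.0) in its absence. The 345 nt are 56.1% of the length of the 615 nt form. The shares without cycloheximide were thus near the share of length, and the interval of the deep list lay below it.

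**Figure D2:**
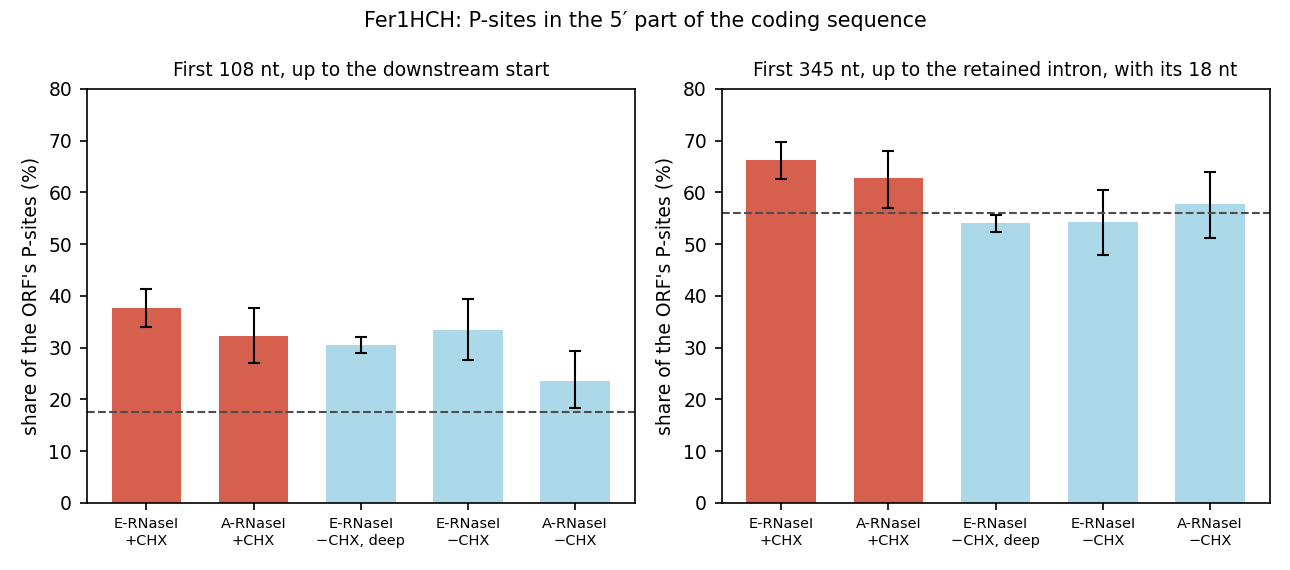
Share of the Fer1HCH P-sites of the 615 nt ORF (%, bars from 0) in its first 108 nt and in its first 345 nt with 18 nt of intron, in lists with cycloheximide (+CHX, red) and without it (−CHX, blue); error bars are exact 95% binomial intervals and dashed lines the share of the ORF's length. With E-RNaseI the longer stretch holds 66.3% in the presence of cycloheximide and 54.0% to 54.3% in its absence.

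The comparison of these shares addresses whether cycloheximide shifts footprints along the ORF. In Fer1HCH the 5′ shares were higher in the presence of cycloheximide in all 4 standard comparisons, and the interval of the difference was above 0 in 2 of them. The comparisons are 2 stretches in 2 pairs of lists. The first 108 nt lie inside the longer stretch, so the comparisons are not independent. For the first 345 nt and the intron part the difference was 12.0 percentage points (4.79 to 19.2) with E-RNaseI and 4.98 points (-3.44 to 13.4) with A-RNaseI. For the first 108 nt it was 4.24 points (-2.89 to 11.1) with E-RNaseI and 8.58 points (0.807 to 16.1) with A-RNaseI. The intervals of these differences combine the exact bounds of the 2 shares. The first 108 nt went the same way as most stretches of this kind. Over all pairs of in-frame nested starts found in both lists, that of Fer1HCH included, the share upstream of the inner start was higher with cycloheximide in 70.2% of 141 pairs with E-RNaseI (median difference 2.25 points) and in 77.5% of 80 pairs with A-RNaseI (median 2.48 points).

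At the other end of Fer1HCH, an ORF of the last 51 nt, or 17 codons, of FBtr0085635 was called only in the E-RNaseI lists without cycloheximide, with 329 P-sites in the deep list and 32 in the standard one. These last codons are 8.29% of the length and held 9.77% (8.79 to 10.8) of the P-sites in the deep list and 12.4% (8.64 to 17.1) in the standard list. Whether the other lists differ there was not measured, since the ORF was not called in them.

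Mvl was called in 3 forms that differ in their last coding exon. FBtr0301477 ends in an exon of 52 nt, FBtr0306350 in one of 79 nt and FBtr0306351 in one of 85 nt. The forms FBtr0306350 and FBtr0306351 had equal P-sites in each of the 4 lists that held them, 97 (E-RNaseI) and 54 (A-RNaseI) with cycloheximide, and 562 (deep) and 45 (E-RNaseI) without it. FBtr0301477 had 5 P-sites more with cycloheximide and E-RNaseI, 2 more with cycloheximide and A-RNaseI, and 93 more in the deep list without cycloheximide. The excess was 4.90% (1.61 to 11.1; E-RNaseI) and 3.57% (0.435 to 12.3; A-RNaseI) of the P-sites of FBtr0301477 in the presence of cycloheximide, against 14.2% (11.6 to 17.1) in the deep list, for an exon that is 2.91% of its length. The E-RNaseI intervals with cycloheximide and in the deep list do not overlap, while the A-RNaseI interval overlaps that of the deep list. In the standard lists without cycloheximide this excess could not be taken, because the forms had different starts or were called once only.

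The ORF caller placed the start codon of Fer1HCH and of Irp-1B at the same position in every list, while those of Irp-1A and Mvl changed. For Irp-1A the start was 1188 nt, or 396 codons, further downstream in the absence of cycloheximide with A-RNaseI, which left an ORF of 1518 nt in place of 2706 nt. The other 4 lists had the full ORF, although the standard E-RNaseI list without cycloheximide had fewer P-sites on it, 52, than the 63 on the shorter one. For Mvl the start of FBtr0301477 was the same in 3 lists. It was 426 nt, or 142 codons, further downstream with cycloheximide and A-RNaseI, and 1053 nt, or 351 codons, further downstream without cycloheximide and with E-RNaseI. In this last list the starts of FBtr0306350 and FBtr0306351 were only 300 nt downstream, so forms that share this sequence were given different starts in the same list.

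**Figure D3:**
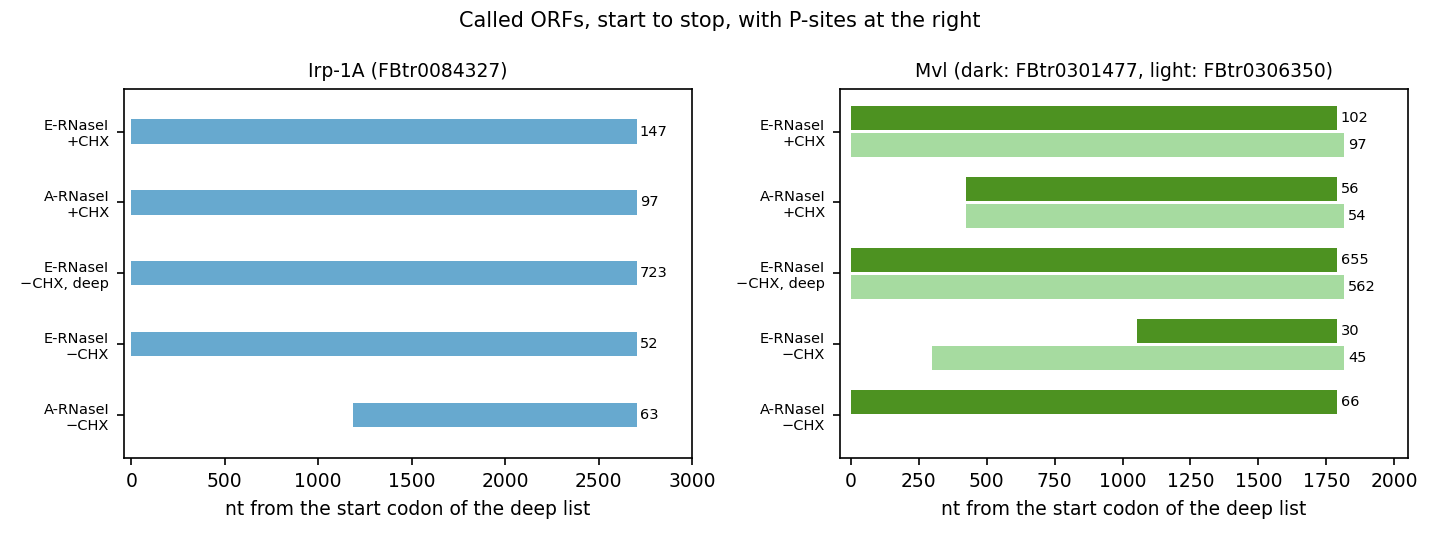
Called ORFs of Irp-1A (left) and of 2 forms of Mvl (right) in each list, drawn from start to stop along the ORF (x axis, nt from the start codon of the deep list), with the P-sites written at the right end; +CHX and −CHX mark lists with and without cycloheximide treatment. Irp-1A is shortened to 1518 nt in the −CHX, A-RNaseI list, and Mvl in the +CHX, A-RNaseI list and in the standard −CHX, E-RNaseI list.

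Of the stop codons of the iron genes found in both lists, 3 of 7 had another start with cycloheximide than without it with E-RNaseI (48.1% of all stop codons), and 2 of 5 with A-RNaseI (55.0%). Between E-RNaseI and A-RNaseI, 3 of 7 differed in the presence of cycloheximide (44.0%) and 2 of 5 in its absence (49.5%). Between the deep and the standard list 3 of 7 differed (48.3%). These shares are near those of all stop codons, but the stop codons are not independent. Where 3 of 7 differed, all 3 were stop codons of Mvl, whose forms differ in their last coding exon. Where 2 of 5 differed, they were those of Irp-1A and Mvl.

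The P-sites of the iron genes in the presence of cycloheximide were lower than in its absence relative to depth when summed. With E-RNaseI the 4 genes summed to 1323 P-sites in the presence of cycloheximide against 487 in its absence, a depth-scaled ratio of 0.886 (0.798 to 0.985). With A-RNaseI they summed to 679 in its presence against 567 in its absence, a scaled ratio of 0.844 (0.754 to 0.946). The median ratio over all stop codons was 1.03 with E-RNaseI and 1.02 with A-RNaseI. Fer1HCH holds the largest part of these sums, and its own scaled ratio was 0.854 (0.739 to 0.990) with E-RNaseI and 0.891 (0.752 to 1.06) with A-RNaseI. For Irp-1B the ratios were 0.883 (0.729 to 1.07; E-RNaseI) and 0.790 (0.647 to 0.964; A-RNaseI). For Irp-1A they were 0.922 (0.668 to 1.29) with E-RNaseI and 1.09 (0.783 to 1.52) with A-RNaseI, where the ORFs had different starts. On P-sites with E-RNaseI no iron gene was past 1.5-fold, where 14.0% of all stop codons were at least 1.5-fold higher and 7.92% at least 1.5-fold lower. With A-RNaseI 1 of the 4, Mvl, was lower (0.598, 0.411 to 0.867), where 13.0% of all stop codons were higher and 9.06% lower. These calls depend on the length of the ORFs where starts differ. Per 100 nt of the ORF as called, Mvl was past 1.5-fold with E-RNaseI (0.456) but not with A-RNaseI (0.785), and Irp-1A was past it with A-RNaseI (0.609).

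Mvl held all the ratios past 1.5-fold on P-sites, and in each of its 5 comparisons the called start differed. With E-RNaseI its cycloheximide ratio was 1.11 (0.732 to 1.73), with the start 351 codons further downstream in the absence of cycloheximide. With A-RNaseI the start was further downstream in the presence of cycloheximide, the condition with the lower count. Between the RNases in the absence of cycloheximide its ratio was 0.490 (0.307 to 0.766), and between the deep and the standard list 1.54 (1.07 to 2.30). Per 100 nt of the ORF as called these last ratios were 1.19 for the RNases and 0.633 for deep over standard, on the other side of 1. With the form that held the most P-sites in each list they were 0.735 (0.492 to 1.09) for the RNases and 1.03 (0.758 to 1.42) for deep over standard, both within 1.5-fold, and the E-RNaseI cycloheximide ratio was 0.739 (0.516 to 1.07). Set against the deep list, that cycloheximide ratio was 0.720 on FBtr0301477.

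**Figure D4:**
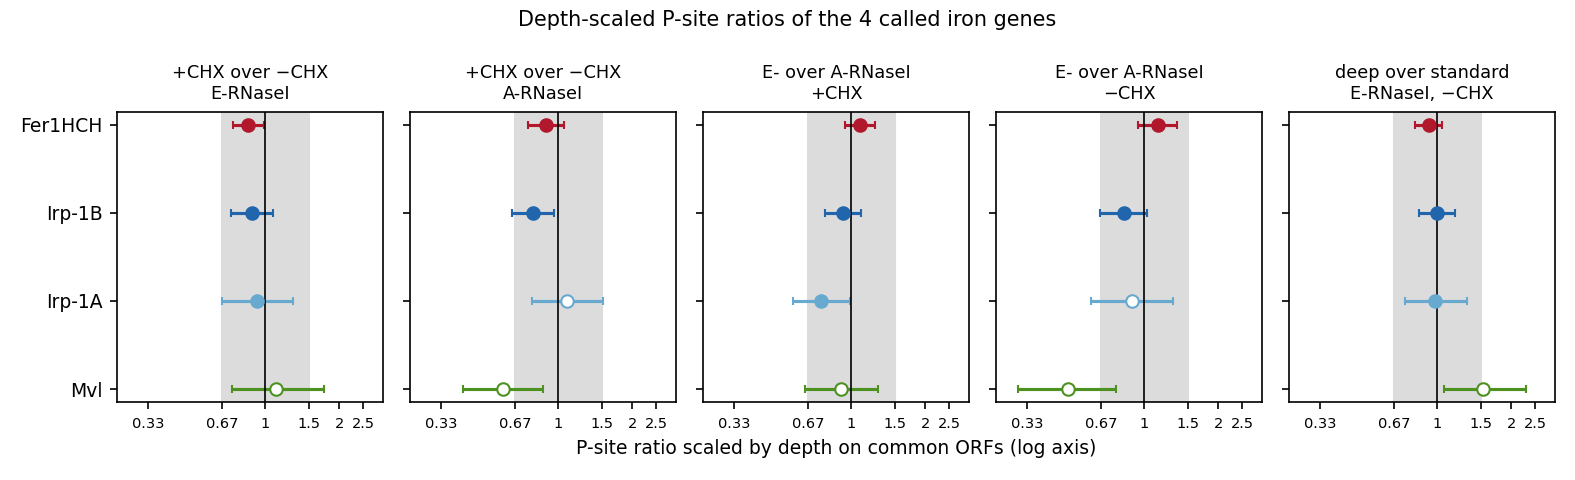
Depth-scaled P-site ratios (log axis) of Fer1HCH, Irp-1B, Irp-1A and Mvl in 5 comparisons, with exact 95% intervals that cover counting error only; grey marks ratios within 1.5-fold, and open points pairs of ORFs with different starts (CHX, cycloheximide). All points beyond the grey zone are open points of Mvl.

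The RNase and buffer combinations gave summed levels for the iron genes that did not differ beyond counting error. In the presence of cycloheximide the summed scaled ratio of E-RNaseI over A-RNaseI was 0.972 (0.885 to 1.07), and in its absence 0.926 (0.819 to 1.05). For Fer1HCH it was 1.08 (0.946 to 1.24) in the presence of cycloheximide and 1.13 (0.946 to 1.35) in its absence. For Irp-1B it was 0.923 (0.780 to 1.10) in treated cells and 0.826 (0.661 to 1.03) without the treatment. For Irp-1A it was 0.756 (0.581 to 0.987) in the presence of cycloheximide and 0.890 (0.604 to 1.31) in its absence, the last on ORFs with different starts and 0.499 per 100 nt. In the presence of cycloheximide no iron gene was past 1.5-fold, where 12.4% of all stop codons were higher and 7.75% lower. In its absence 1 of the 4, Mvl, was lower on FBtr0301477 but not on its form with the most P-sites, where 12.3% were higher and 8.80% lower.

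The deep list had 14.2 times the depth of the standard list of its condition. The labels do not say whether both come from the same library, so they may not be independent. The summed scaled ratio was 0.987 (0.900 to 1.08), that of Fer1HCH 0.920 (0.811 to 1.05), that of Irp-1A 0.981 and that of Irp-1B 0.993. Only Mvl, 1 of the 4, was past 1.5-fold, on the 735 nt call of FBtr0301477 and not on its form with the most P-sites, where 7.86% of all stop codons were higher and 2.35% lower.

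Other genes of iron handling were read from a list of 25, of which 24 matched the annotation. Of these, 17 (E-RNaseI) and 16 (A-RNaseI) had an ORF with cycloheximide, and 19 (deep), 17 (E-RNaseI) and 14 (A-RNaseI) without it. Over all protein-coding genes these shares were 40.1% (E-RNaseI) and 31.0% (A-RNaseI) with cycloheximide, and 43.8% (deep), 34.4% (E-RNaseI) and 27.7% (A-RNaseI) without it. All 7 genes of haem synthesis and breakdown and all 6 of iron-sulphur cluster assembly were called in the deep list. Of the ferritin and transferrin relatives Fer3HCH, Tsf2 and Tsf3 only Tsf2 was called, in the deep list alone, with 106 P-sites or 4.72 per 100 nt. Ferritin and transferrin genes were thus represented in the standard lists by Fer1HCH only.

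SdhB, the iron-sulphur subunit of succinate dehydrogenase, whose mRNA carries an iron responsive element in Drosophila, was called in every list. It had 42.9 (E-RNaseI) and 25.7 (A-RNaseI) P-sites per 100 nt with cycloheximide, and 207 (deep), 15.2 (E-RNaseI) and 19.6 (A-RNaseI) without it. These levels lay below those of Fer1HCH in each list. mAcon1, the mitochondrial aconitase, had 32.7 (E-RNaseI) and 20.1 (A-RNaseI) P-sites per 100 nt with cycloheximide, and 153 (deep), 11.6 (E-RNaseI) and 14.3 (A-RNaseI) without it. Among the transport and oxidation genes Cisd2, which encodes an iron-sulphur protein, was highest in the deep list at 761 P-sites per 100 nt. In the iron-sulphur assembly group it was IscU, the scaffold protein, at 193, and in the haem group FeCH, ferrochelatase, at 84.0. Cisd2 was above the 735 nt form of Fer1HCH in every list. The 615 nt form of Fer1HCH was above Cisd2 only with cycloheximide and E-RNaseI, at 110 against 98.5.

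The scaled cycloheximide ratio of these genes with E-RNaseI had a median of 0.923 over the 17 genes in both lists, with 2 higher and 3 lower by at least 1.5-fold (14.0% and 7.92% of all stop codons). Genes beyond this limit, named because of their values, included Fdx2 (1.70), which was higher, and Cisd2 (0.583), IscU (0.618) and Ho (0.626), which were lower. With A-RNaseI the median was 0.951 over 14 genes, with mfrn (4.16) higher and Nfs1 (0.235) lower, both on ORFs with different starts (13.0% higher and 9.06% lower among all stop codons). Between the RNases the median was 0.908 over 16 genes in the presence of cycloheximide, with 1 higher (Nfs1, 3.24, with different starts) and 2 lower (Alas, 0.571, and Ppox, 0.597), against 12.4% and 7.75% of all stop codons. In the absence of cycloheximide it was 0.889 over 14 genes, with 1 higher (mfrn, 3.29, with different starts) and 1 lower, against 12.3% and 8.80%. Between the deep and the standard list it was 0.984 over 17 genes, with 0 past the limit, against 7.86% higher and 2.35% lower.

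The genes with the most similar levels over the 5 lists were found by the distance between their log2 P-sites per 100 nt, scaled to common depth, among 3276 other genes with a stop codon in all lists. Nearest to Fer1HCH were Cnx99A, a calnexin of the endoplasmic reticulum, at a distance of 0.157, CCT2, a chaperonin subunit, at 0.196, and Tig at 0.207, where the median gene was at 6.73. Cnx99A had 101 (E-RNaseI) and 42.1 (A-RNaseI) P-sites per 100 nt with cycloheximide and 455 (deep), 33.6 (E-RNaseI) and 34.2 (A-RNaseI) without it. Nearest to Irp-1B were Acsf2 (0.137), clu (0.169) and Gp210 (0.171), to Irp-1A Sfmbt (0.233), CG9706 (0.406) and Mtr4 (0.452), and to Mvl snRNP-U1-70K (0.416), Noc2 (0.422) and Polr2B (0.438). This distance weighs the level above all, and the 5 lists are its only points. It uses the length of each ORF as called, so the changed starts of Irp-1A and Mvl enter it. Their nearest genes may thus share shifts of the called start and not only levels, which was not tested.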

How the data were processed

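Ribosome profiling of S2 cells was deposited as 5 lists of translated ORFs, 1 per sample. Per the methods, the authors trimmed reads with Cutadapt (2.10), removed rRNA and tRNA reads with Bowtie2 (2.4.1), aligned with STAR (2.7.5c), used SAMtools (1.10), subsampled reads and called ORFs with RiboTaper. The subsampling is not stated for the deep list, and read lengths kept differed between lists. The value deposited for each ORF by the authors is an unnamed whole number, read here as its P-site counts and not normalized. The lowest count in the lists is 6. Coordinates count from 1. On the minus strand one outer edge of an ORF is uncertain by a nucleotide.

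ORFs were assigned to genes by the RefSeq Release 6 table. For each stop codon the longest ORF was used, and for each gene the stop codon with the most P-sites in the deep list, kept for all lists. Ratios were divided by the ratio of summed P-sites on ORFs common to the 5 lists, with exact Clopper-Pearson or Poisson 95% intervals (Python 3.11.15, numpy 2.4.6, pandas 2.3.3, scipy 1.17.1). The ratios and their intervals were also computed on simulated counts with known folds. The scale there came from ORFs known to be unchanged, unlike the scale used for the data. The comparison of start codons was not tested by simulation. With 1 sample per condition, calls are ratios of at least 1.5-fold and no p-value is given. Genes named were the 6 iron genes, SdhB, mAcon1, the gene with the highest level of each related group and the 3 nearest patterns; others are marked as named for their values. The values of some listed genes are not reported here. The genes, lists and comparisons were chosen with earlier results of these data known, and the shares of Fer1HCH and Mvl stretches were added after seeing the data. Alternatives changed the scaling, the ORF used per stop codon, the length correction, the stop codon used per gene, the gene assignment and the minimum count. No nucleotide or protein sequences were used here.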

Additional observations from a re-analysis of the deposited data

Results flagged for a closer look

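The scaled ratio of the lists with and without cycloheximide lay on opposite sides of 1 with E-RNaseI and A-RNaseI for 2 genes. For Irp-1A it was 0.922 (E-RNaseI) and 1.09 (A-RNaseI), and for Mvl it was 1.11 (E-RNaseI) and 0.598 (A-RNaseI). The difference between the RNases was not tested, and the Irp-1A pair with A-RNaseI and both Mvl pairs compare ORFs with different starts. Per 100 nt of the ORF as called all of these ratios were below 1, at 0.922 (E-RNaseI) and 0.609 (A-RNaseI) for Irp-1A and 0.456 (E-RNaseI) and 0.785 (A-RNaseI) for Mvl.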

How the results depend on the processing

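Over the alternatives, 56 values of the main comparisons moved by less than their interval (counts by less than 1.5 times) and 5 by more. This count is no measure of stability, since some alternatives could not change the values. All ORFs of the iron genes were annotated coding ORFs, so keeping only these removed none. Irp-1A and Irp-1B had 1 stop codon each, so summing over stop codons changed nothing. Taking the ORF with the most P-sites per stop codon gave the same values in the main comparisons. Without scaling by depth the summed ratios were 2.72 (E-RNaseI) and 1.20 (A-RNaseI) for cycloheximide, 1.95 for E-RNaseI over A-RNaseI among treated cells and 13.99 for deep over standard, which restates the depth. With the ORF length of the deep list, an alternative chosen after seeing the data, Irp-1A over Irp-1B was 0.327 in the absence of cycloheximide with A-RNaseI. That value is a lower limit, since P-sites before the called start were not counted. For single genes 82 values stayed in this range and 22 did not. Of the ratios past 1.5-fold, 2 crossed 1, both of Mvl per 100 nt, with 1.19 for E-RNaseI over A-RNaseI in the absence of cycloheximide and 0.633 for deep over standard. Ratios within 1.5-fold that left their interval and crossed 1 on scaled values were Mvl with cycloheximide and E-RNaseI (0.456 per 100 nt and 0.720 against the deep list) and Irp-1A with cycloheximide and A-RNaseI (0.609 per 100 nt). With the stop codon of most P-sites in each list, added after seeing the data, no Mvl ratio of the standard E-RNaseI list without cycloheximide was past 1.5-fold.

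The Fer1HCH over Fer2LCH ratio gave no value, since Fer2LCH had no ORF, and the alternative with RefSeq protein lengths was not run. No paired analysis was possible because each condition was 1 sample. Irp-1A and Mvl (FBtr0301477) held 30 to 66 P-sites in the standard lists without cycloheximide.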
